A study of Macaca mulatta with 12 samples.

Results

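The dual-specificity MAPK phosphatases considered here were DUSP1, DUSP2, DUSP4, DUSP5, DUSP6, DUSP10 and DUSP16, chosen by name. Of these 7 genes, 3 were matched to a row of the count table, which holds 32386 rows: DUSP6 (ENSMMUG00000006227), DUSP10 (ENSMMUG00000004379) and DUSP16 (ENSMMUG00000018580). DUSP1, DUSP2, DUSP4 and DUSP5 were not analysed here. DUSP10 and DUSP16 were matched through a macaque name table. The name of DUSP6 came from the authors' deposited tables alone, which list only genes past the authors' threshold for late against early cells, so its difference between the times is not independent of how it was found. In the authors' deposited table, on build Mmul_8.0.1, DUSP6 lies on chromosome 11 from 88818429 to 88825157 and DUSP10 on chromosome 1 from 144518078 to 144558138.

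Mitogen-activated protein kinases (MAPKs) are switched on when a threonine and a tyrosine in their activation loop are phosphorylated, and these phosphatases switch them off by removing both phosphates. In macrophages, lipopolysaccharide (LPS) activates the ERK, JNK and p38 MAPKs, which drive inflammatory gene expression, and MAPK signalling in turn induces several phosphatase genes as negative feedback. DUSP6 is a cytoplasmic phosphatase selective for ERK, whereas DUSP10 and DUSP16 act mainly on the stress-activated kinases JNK and p38.

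The cells were CD14+CD16-CD163+ macrophages sorted from rhesus macaque (Macaca mulatta) blood, and 4 groups of 3 libraries were sequenced. The groups were late stimulated cells (Late ACT), late unstimulated cells (Late CTL), early stimulated cells (Early ACT) and early unstimulated cells (Early CTL). Late means 19 months and early 4.5 months after transplant, and stimulation means 8 h with LPS at 100 ng/ml and interferon-gamma at 20 ng/ml, although the treatment field names LPS alone. All groups share an autologous transplant of CD34+ cells that had been treated with CRISPR/Cas9, in a series whose title names TET2-mutant hematopoiesis, and no group of cells from untreated animals was analysed here. The labels give neither the animal nor the well of a library, so the spread behind each p-value is that between libraries and may be technical. Libraries carry no date in the labels, so the time after transplant and anything else that differed between the collections cannot be told apart.

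Library totals ran from 3910680 to 12972505 counts. Genes with a count numbered 17470 to 20760 in late and 13883 to 16132 in early libraries. The part of this difference in the late over early results was not tested. The sorted type was checked on CD14, at 1375.7 to 1754.1 CPM (counts scaled to a common library total) in late and 1987.1 to 2823.7 CPM in early libraries, and on CD163, at 501.5 to 607.4 CPM late and 1079.5 to 1338.1 CPM early. TET2 was read at 414.8 to 436.8 CPM in late and 250.3 to 311.7 CPM in early libraries. The T cell markers with a row, 4 of 7, summed to at most 3.26 CPM in any library, and the neutrophil markers, 5 of 6, to 319.1 to 417.6 CPM in late and 617.3 to 744.7 CPM in early libraries. Early ACT 1 was unlike its own group, and on the second principal component of all tested genes it was at -61.64, against -9.38 and -8.76 in Early ACT 2 and 3. No pair of replicates agreed within sampling noise, since the chi-square per degree of freedom between replicates was at least 2.75.

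All 3 matched phosphatase genes passed the low-count filter. DUSP6, the ERK phosphatase, had 8739 to 30384 counts per library. Its level was 2653.2, 2657.2 and 2666.5 CPM in late stimulated cells, 2705.7, 2753.5 and 2617.9 CPM in late unstimulated cells, 1898.9, 2323.7 and 2349.1 CPM in early stimulated cells, and 1990, 2025.1 and 1959.7 CPM in early unstimulated cells. Every late library was above every early library, the late groups overlapped, and Early ACT 1 was below all 3 early unstimulated libraries. The group means were 2659 ± 6.81, 2692.4 ± 68.8, 2190.6 ± 253 and 1991.6 ± 32.7 CPM in Late ACT, Late CTL, Early ACT and Early CTL cells (SD, n = 3 each). From high to low on the library total the order was Late CTL, Late ACT, Early ACT and Early CTL. On this scale neighbouring groups differed beyond the spread of their libraries only between Late ACT and Early ACT. The fit below scales libraries differently, and there DUSP6 passed between the early groups and not between the stimulated groups.

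DUSP10, which acts on JNK and p38, had 141 to 465 counts per library. Its level was 34.42, 42.99 and 39.48 CPM in late stimulated cells, 37.59, 42.72 and 31.62 CPM in late unstimulated cells, 30.64, 35.85 and 30.69 CPM in early stimulated cells, and 27.86, 22.86 and 23.84 CPM in early unstimulated cells. The early unstimulated libraries were the 3 lowest of all 12 and overlapped no other group. The means were 38.96 ± 4.31, 37.31 ± 5.55, 32.39 ± 2.99 and 24.85 ± 2.65 CPM in Late ACT, Late CTL, Early ACT and Early CTL cells (SD, n = 3 each). In that order, which runs from high to low, Late ACT overlapped Late CTL and Late CTL overlapped Early ACT.

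DUSP16, also a phosphatase of JNK and p38, had 615 to 2406 counts per library. Its level was 131, 178.2 and 162.7 CPM in late stimulated cells, 180.8, 119 and 94.86 CPM in late unstimulated cells, 172.7, 175 and 186 CPM in early stimulated cells, and 139.8, 126.1 and 117.4 CPM in early unstimulated cells. Late CTL 1 was well above the other late unstimulated libraries, and the early stimulated libraries were all above the early unstimulated ones. The means were 157.3 ± 24.1, 131.6 ± 44.3, 177.9 ± 7.11 and 127.7 ± 11.3 CPM in Late ACT, Late CTL, Early ACT and Early CTL cells (SD, n = 3 each). From high to low the order was Early ACT, Late ACT, Late CTL and Early CTL, and on the library total each neighbouring pair overlapped. The late unstimulated libraries varied most, with a coefficient of variation of 33.7% for DUSP16, against 2.56% for DUSP6 and 14.9% for DUSP10 in the same libraries.

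**Figure D1:**
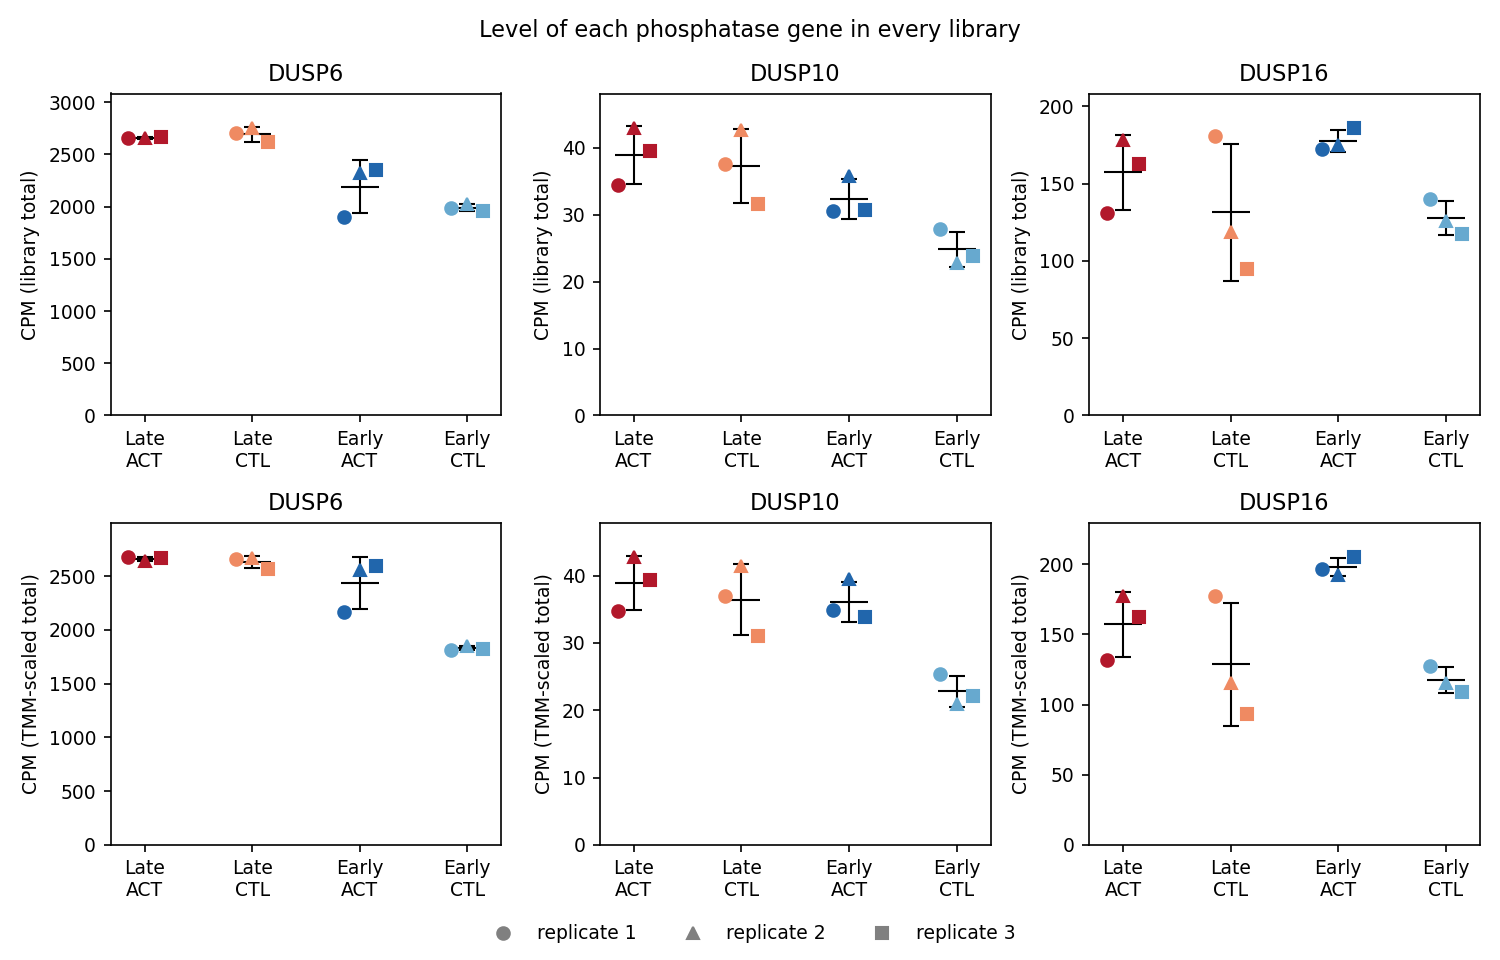
Level of DUSP6, DUSP10 and DUSP16 in each of the 12 libraries, in CPM of the library total (upper row) and in CPM of the TMM-scaled total (lower row), with the group mean and SD as horizontal lines and bars. On the upper scale DUSP6 in Early ACT 1 (1898.9 CPM) lies below the early unstimulated libraries, and on the lower scale (2161.3 CPM) above them.

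The first question was how the phosphatases responded to stimulation at each time. At 4.5 months all 3 were higher in stimulated than in unstimulated cells, by 1.33-fold for DUSP6, 1.59-fold for DUSP10 and 1.69-fold for DUSP16. Of all 11826 genes tested, 7.23% passed at this time, 4.57% higher and 2.66% lower in stimulated cells. The log2 fold change was 0.41 ± 0.10 (SE) for DUSP6, with a 95% interval of 0.20 to 0.62 and an adjusted p of 0.0112. DUSP10 rose by 0.67 ± 0.15 (0.35 to 0.98, adjusted p = 0.00595). The largest estimate of the 3 was that of DUSP16, at 0.76 ± 0.16 (0.43 to 1.09, adjusted p = 0.00331). All p-values come from edgeR's quasi-likelihood test with Benjamini-Hochberg adjustment over all tested genes, with a threshold of 0.05.

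The folds of the fit are larger than the ratios of mean CPM, which were 1.1 for DUSP6, 1.3 for DUSP10 and 1.39 for DUSP16. The fit scales each library by a TMM factor, and these factors were 0.879 to 0.909 in early stimulated and 1.08 to 1.1 in early unstimulated libraries. On the TMM-scaled total DUSP6 was at 2161.3, 2556.8 and 2589.4 CPM in early stimulated cells and at 1813.4, 1852.4 and 1821 CPM in early unstimulated cells. The groups do not overlap on this scale, with Early ACT 1 again the lowest of its group. On the same scale DUSP10 averaged 36.05 ± 2.98 CPM in early stimulated and 22.82 ± 2.31 CPM in early unstimulated cells (SD, n = 3 each). DUSP16 averaged 198.1 ± 6.38 CPM in early stimulated and 117.3 ± 9.31 CPM in early unstimulated cells.

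The early call of DUSP6 depended on single libraries and on which groups entered the fit. Its adjusted p was 0.0725, 0.0583 and 0.064 without Early CTL 1, 2 or 3 and 0.0542 without Early ACT 3, and it was 0.0662 when only the early groups were fitted, while the log2 fold change stayed between 0.37 and 0.49 in every alternative. Without Early ACT 1, the library that stood apart, DUSP6 rose by 0.49 ± 0.07 (adjusted p = 1.17e-07) and DUSP10 by 0.69 ± 0.14 (adjusted p = 0.00036). DUSP16 kept its estimate without that library, 0.77 ± 0.24, but no longer passed (adjusted p = 0.0873). DUSP10 lost its call without Early CTL 2 (0.61 ± 0.18, adjusted p = 0.0581). The plot of the early response under each alternative shows these values side by side.

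**Figure D2:**
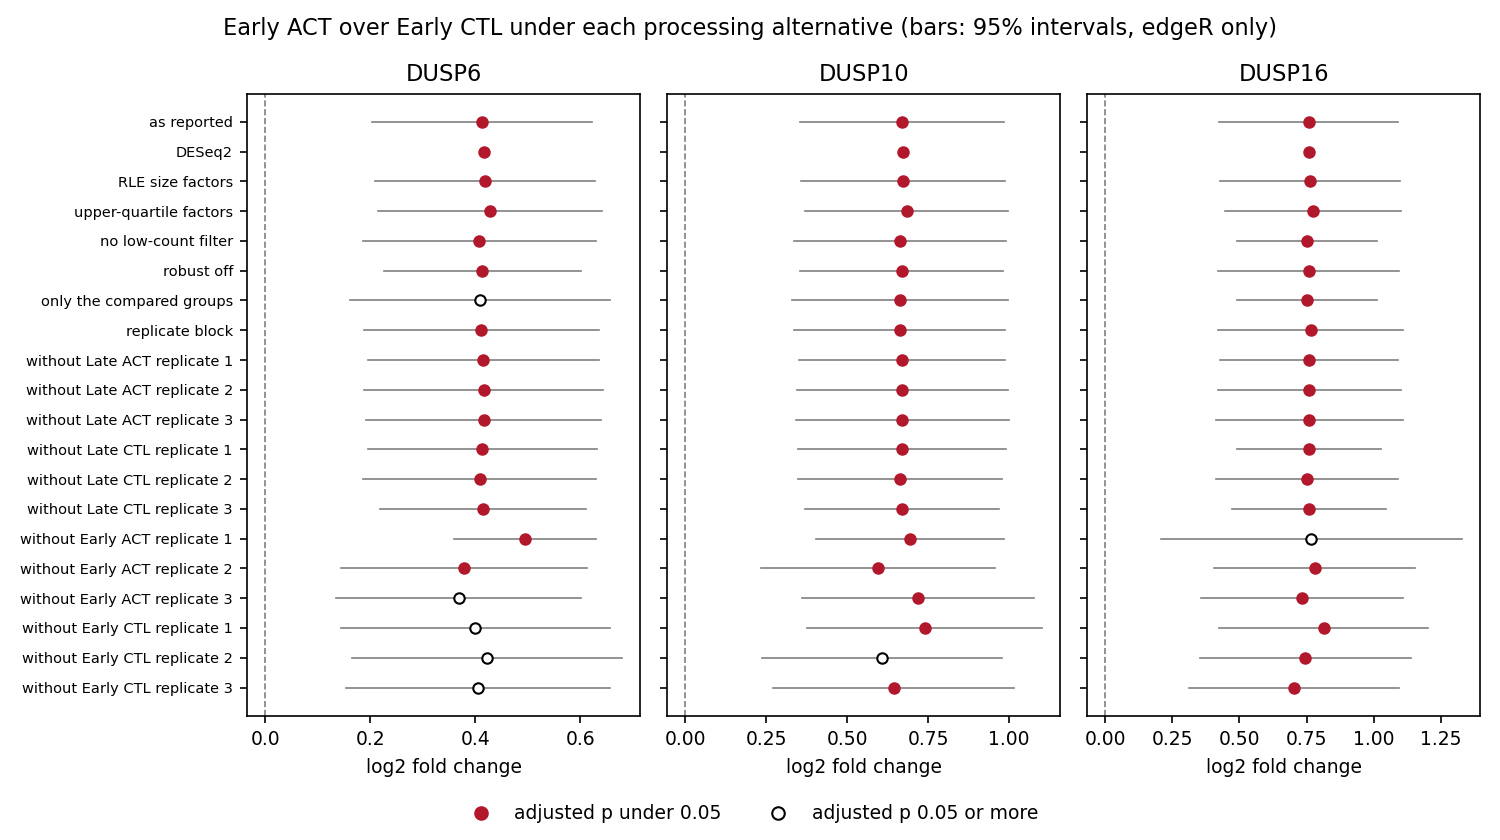
Log2 fold change of DUSP6, DUSP10 and DUSP16 in early stimulated over early unstimulated cells, as reported and under each of the 19 alternatives, with 95% intervals for the edgeR fits (none is drawn for DESeq2). Filled points passed the threshold of 0.05, and open points, 5 for DUSP6 and 1 each for DUSP10 and DUSP16, did not.

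At 19 months 0 of the 3 phosphatases passed in stimulated against unstimulated cells, whether in edgeR, in DESeq2 or at an unadjusted p under 0.05. The edgeR test called 0% of all genes in this comparison, 0 of 11826, although 527 had an unadjusted p under 0.05, and DESeq2 called 15. DUSP6 differed by a log2 fold change of 0.02 ± 0.10 (interval -0.19 to 0.22, adjusted p = 0.9985). For DUSP10 the difference was 0.10 ± 0.15 (interval -0.22 to 0.41, adjusted p = 0.9985). DUSP16 had the largest late estimate, 0.30 ± 0.16 (interval -0.04 to 0.63, adjusted p = 0.9985). The DUSP16 estimate was 0.59 (adjusted p = 0.352) without Late CTL 1, the highest of its group, and 0.11 without Late CTL 3, the lowest. The count of all genes called was 29 without Early ACT 1, against 0 with it.

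Whether the responses differed between the times was tested as the late response minus the early response. The difference was -0.40 ± 0.14 for DUSP6 (interval -0.69 to -0.10), -0.57 ± 0.21 for DUSP10 (interval -1.02 to -0.13) and -0.46 ± 0.23 for DUSP16 (interval -0.93 to 0.01). In edgeR none of the 3 passed after adjustment, with adjusted p of 0.23, 0.262 and 0.474 for DUSP6, DUSP10 and DUSP16. Across all genes 1.41% passed, 0.186% with a higher and 1.23% with a lower response late. At an unadjusted p under 0.05, 2 of the 3 phosphatases differed, DUSP6 (unadjusted p = 0.0105 in edgeR) and DUSP10 (unadjusted p = 0.0132 in edgeR). Of all tested genes 10.8% were under that unadjusted threshold in edgeR. DESeq2 called DUSP6, at -0.41 ± 0.11 (adjusted p = 0.00913), and so did edgeR without Early ACT 1, at -0.48 ± 0.09 (adjusted p = 0.000273). For DUSP10 and DUSP16 no alternative passed, with adjusted p of at least 0.0747 and 0.166.

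**Figure D3:**
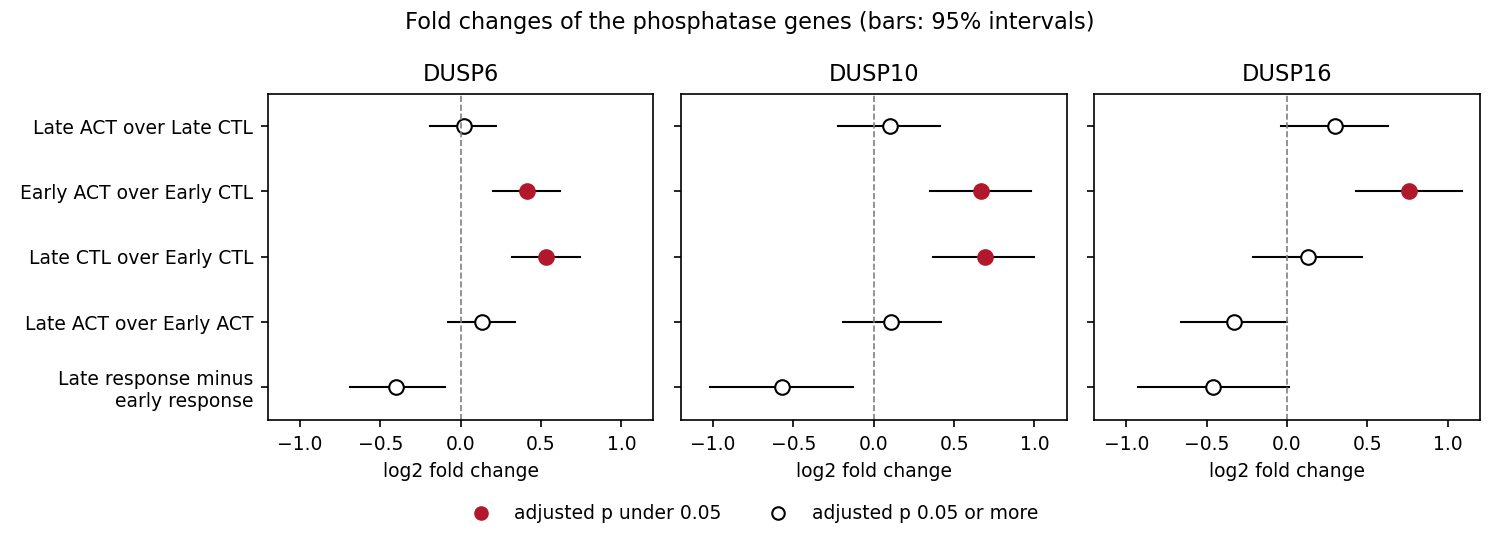
Log2 fold changes of DUSP6, DUSP10 and DUSP16 in 4 comparisons and in the late response minus the early response, with 95% intervals. Filled points passed the threshold of 0.05, which all 3 genes did on early stimulation and none did on late stimulation, where the estimates were 0.02, 0.10 and 0.30.

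The second question was how the levels differed between the times. In unstimulated cells DUSP6 and DUSP10 were higher at 19 than at 4.5 months, by 1.44-fold and 1.61-fold, so 2 of the 3 phosphatases passed. DUSP6 was named only because the authors called it in this comparison, so its pass here is not independent of how it was found. In this comparison 40.7% of all genes passed, 20.9% higher and 19.8% lower late. The log2 fold change of DUSP6 was 0.53 ± 0.10 (interval 0.32 to 0.74, adjusted p = 0.000209), and the late and early libraries did not overlap. DUSP10 rose by 0.69 ± 0.15 (interval 0.37 to 1.00, adjusted p = 0.000971), again with no overlap. DUSP16 did not pass, at 0.13 ± 0.16 (interval -0.21 to 0.47, adjusted p = 0.556), and its estimate was -0.18 without Late CTL 1. The authors' deposited table gives a late over early log2 fold change of 0.54 ± 0.06 (SE, adjusted p = 1.155e-17) for DUSP6 and 0.70 ± 0.18 (adjusted p = 0.00105) for DUSP10 in unstimulated cells.

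DUSP6 and DUSP10 passed in all 19 alternatives of this comparison, with log2 fold changes of 0.47 to 0.65 and 0.56 to 0.81. Upper-quartile scaling moved the median of all genes by more than 0.1, to 0.15 in this comparison, against 0.02 with TMM, and raised the share of higher genes among those called to 63.3%, against 51.3%. DESeq2 gave 64.5%, but without the low-count filter, on 17277 tested genes against 11826, and its median was 0.50. In DESeq2 DUSP6 was at 0.56 and DUSP10 at 0.72. With upper-quartile factors DUSP6 was at 0.65 and DUSP10 at 0.81, above the median of 0.15. In DESeq2 the 0.56 of DUSP6 was close to the median of 0.50. The part of scaling in these differences was not tested. The sum of the monocyte and macrophage markers, all 7 with a row, moved the other way between the times. This sum was 5770.4 to 6381 CPM in late unstimulated and 10272 to 10555 CPM in early unstimulated cells, and its part in the result was not tested. Neutrophil markers with a row summed to 362.8 to 417.6 CPM in late unstimulated and 700.6 to 744.7 CPM in early unstimulated cells, and NK cell markers with a row, 4 of 6, to 17.14 to 21.99 CPM late and 12.17 to 14.76 CPM early, and their part was not tested either. In sorted bulk samples, fewer cells of a type and less RNA per cell cannot be told apart.

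In stimulated cells none of the 3 phosphatases passed between the times in edgeR, in DESeq2 or at an unadjusted p under 0.05, whereas 38.8% of all genes passed in edgeR, 19.1% higher and 19.7% lower late. DUSP6 differed by 0.13 ± 0.10 (interval -0.08 to 0.34, adjusted p = 0.321), although all late stimulated libraries were above all early stimulated ones. DUSP10 differed by 0.11 ± 0.15 (interval -0.19 to 0.42, adjusted p = 0.577). The estimate for DUSP16 had the other sign, -0.33 ± 0.16 (interval -0.66 to 0.00, adjusted p = 0.107). Its libraries did not overlap on the TMM-scaled total, at 132 to 177.2 CPM in late and 192.5 to 205 CPM in early stimulated cells, but did on the library total. DUSP16 passed with no low-count filter, at -0.38 (adjusted p = 0.0232), and without Late CTL 1, a library outside the comparison, at -0.34 (adjusted p = 0.0364). Upper-quartile scaling raised the share of higher genes among those called to 61%, against 49.3%, and the DUSP16 estimate was then -0.23.

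The early stimulation response and the late over early difference of unstimulated cells share the early unstimulated libraries. Side by side, DUSP6 had 0.41 on early stimulation and 0.53 with time, DUSP10 had 0.67 and 0.69, and DUSP16 had 0.76 and 0.13. On the library total, DUSP10 in late unstimulated cells, at 31.62 to 42.72 CPM, lay in the range of the early stimulated cells and above it. DUSP16 in late unstimulated cells reached the early stimulated range in Late CTL 1 alone on that scale. On the TMM-scaled total DUSP10 was at 30.97 to 41.45 CPM in late unstimulated and 33.83 to 39.44 CPM in early stimulated cells. DUSP16 was then at 92.92 to 177.7 CPM in late unstimulated cells, below the 192.5 to 205 CPM of early stimulated cells. Across the 12 libraries, which share these group differences, the Pearson correlation of log2 CPM was 0.822 between DUSP6 and DUSP10, 0.355 between DUSP10 and DUSP16 and 0.0205 between DUSP6 and DUSP16.

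Among 5485 named genes with a mean of at least 10 CPM, the patterns most like that of DUSP6 over the 12 libraries were those of NRIP1 (Pearson r = 0.988), TRMT5 (r = 0.982) and ST3GAL6 (r = 0.982). For DUSP10 they were EHF (r = 0.928), VEGFA (r = 0.923) and WNT1 (r = 0.923). For DUSP16 they were BTBD19 (r = 0.894), CFLAR (r = 0.882) and DYNLT4 (r = 0.881). No gene was among the nearest of more than 1 phosphatase. These r values describe libraries that fall into 4 groups and are given without a test.

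The MAP kinases are the family that holds the substrates of the phosphatases. Of their 8 tested genes 0 passed on early stimulation in edgeR and in DESeq2, with 1 at an unadjusted p under 0.05. Their median log2 fold change was -0.01. MAPK14, a p38 kinase, had a log2 fold change of -0.43 ± 0.16 on early stimulation (adjusted p = 0.111). The row named MAPK8, a JNK kinase, was at 0 to 0.516 CPM and too low to be tested, and whether it covers all of that gene was not checked. With time in unstimulated cells, 1 MAP kinase rose and 1 fell: MAPK6, an atypical MAPK (0.70 ± 0.16, adjusted p = 0.00129), and MAPK3, an ERK kinase (-1.36 ± 0.31, adjusted p = 0.00101), at 4.05 ± 1.15 CPM late and 10.8 ± 0.822 CPM early. In stimulated cells MAPK3 fell too (-1.81 ± 0.33, adjusted p = 0.000124). For comparison with this list and those below, 7.23% of all tested genes passed on early stimulation. At an unadjusted p under 0.05 in edgeR the share was 21.4%. With time 40.7% passed in unstimulated and 38.8% in stimulated cells.

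Upstream, of 19 tested MAPK kinases and their activators, 0 rose and 1 fell on early stimulation, and in unstimulated cells 1 rose and 4 fell with time (0 and 4 in stimulated cells). The 1 that rose, MAP3K7 (0.37 ± 0.15, adjusted p = 0.0473), named after its values were seen, passed in 7 of 19 alternatives, with adjusted p up to 0.216. In late unstimulated cells MAP2K2, which activates ERK, fell by 0.98 ± 0.15, MAP3K3 fell by 0.81 ± 0.16 and MAP3K5, which acts upstream of JNK and p38, fell by 0.95 ± 0.21 on the log2 scale. Downstream, of 10 MAPK-activated kinases 0 passed on early stimulation in edgeR and in DESeq2, with 3 at an unadjusted p under 0.05. Of all tested genes 21.4% were under that unadjusted threshold in edgeR. With time 2 of the 10 rose and 5 fell in unstimulated cells, among them RPS6KA4 (-1.60 ± 0.21), MAPKAPK3 (-0.82 ± 0.16) and RPS6KA1 (-0.83 ± 0.17), and 0 rose and 5 fell in stimulated cells. Their median log2 fold change was -0.51 unstimulated and -0.47 stimulated, against 0.02 and 0.05 over all tested genes. Of all tested genes 20.9% rose and 19.8% fell with time in unstimulated cells, and 19.1% and 19.7% in stimulated cells.

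Sprouty and SPRED proteins, like DUSP6, are feedback inhibitors of ERK signalling. Of 8 tested Sprouty, SPRED and related genes, 5 rose and 0 fell in late unstimulated cells, with a median of 1.18, and 7 rose and 1 fell in late stimulated cells, with a median of 0.62. Over all tested genes 20.9% rose and 19.8% fell in late unstimulated cells, and 19.1% and 19.7% in late stimulated cells. ERRFI1, an inhibitor of the EGF receptor, rose by 1.87 ± 0.16, SPRY2 by 1.21 ± 0.17 and SPRED1 by 1.15 ± 0.17 in late over early unstimulated cells. On early stimulation ERRFI1 rose by 1.01 ± 0.16 and SPRY2 by 0.58 ± 0.17, the 2 of 8 that passed, but SPRY2 did so in 7 of 19 alternatives, with adjusted p up to 0.221. Among those higher in late stimulated cells, SPRY4 passed in 6 of 19 alternatives, NF1 in 13 and RASA1 in 14, all named after their values were seen, and 5 of 9 tested genes rose without Early ACT 1. In unstimulated cells SPRY4 passed in 12 of 18 alternatives, with adjusted p up to 0.108. It had 15 counts in all late and 5 in all early unstimulated libraries. Among 12 tested other dual-specificity phosphatases, 1 rose and 2 fell on early stimulation, SSH2 (-0.46 ± 0.12) and DUSP18 (-0.45 ± 0.12), which belong to the slingshot and atypical branches of the family and each passed in 15 of 19 alternatives, with adjusted p up to 0.0867 for SSH2 and 0.104 for DUSP18. DUSP8, a phosphatase of JNK and p38 named here after its values were seen, was the one that rose, by 1.69 ± 0.37 (adjusted p = 0.00415), at 4.56 ± 0.193 CPM in early stimulated and 1.66 ± 0.479 CPM in early unstimulated cells. With time 2 of these 12 rose and 4 fell in unstimulated cells, among them SSH2 (-1.35 ± 0.13), DUSP18 (-1.03 ± 0.13) and SSH3 (-2.09 ± 0.33), and 1 rose and 4 fell in stimulated cells.

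Of 6 other phosphatases that act on MAPKs, 0 passed on early stimulation in edgeR and in DESeq2, with 1 at an unadjusted p under 0.05. Of all tested genes 21.4% were under that unadjusted threshold in edgeR. With time 2 of the 6 rose and 2 fell in unstimulated cells, and 1 rose and 1 fell in stimulated cells. In unstimulated cells the receptor phosphatase PTPRJ fell by 0.69 ± 0.13 late, and PPP2CB, a catalytic subunit of protein phosphatase PP2A, and PPM1D rose by 0.57 ± 0.18 and 0.43 ± 0.14. PPP2CB passed in 17 and PPM1D in 15 of 19 alternatives, with adjusted p up to 0.109 and 0.0979. The AP-1 and EGR transcription factors are induced by MAPK signalling. The AP-1 and EGR list used here also holds MYC, ELK1, ELK3 and ELK4, and 12 of its 17 genes were tested. With time 2 of the 12 rose and 5 fell in unstimulated and 1 rose and 6 fell in stimulated cells, with medians of -0.31 and -0.47. Among all tested genes 20.9% rose and 19.8% fell in unstimulated cells, and 19.1% and 19.7% in stimulated cells. FOS averaged 143.4 ± 12.8 CPM in late unstimulated and 613.1 ± 17.1 CPM in early unstimulated cells (SD, n = 3 each), a 4-fold lower level in the fit (adjusted p = 9.39e-13). On the log2 scale FOSL2 fell by 1.06 ± 0.12 and JUNB fell by 0.85 ± 0.11 in the same comparison. On early stimulation 2 of the 12 rose and 0 fell, FOSL1 by 0.72 ± 0.11 and MYC by 0.63 ± 0.12, which were named after their values were seen.

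**Figure D4:**
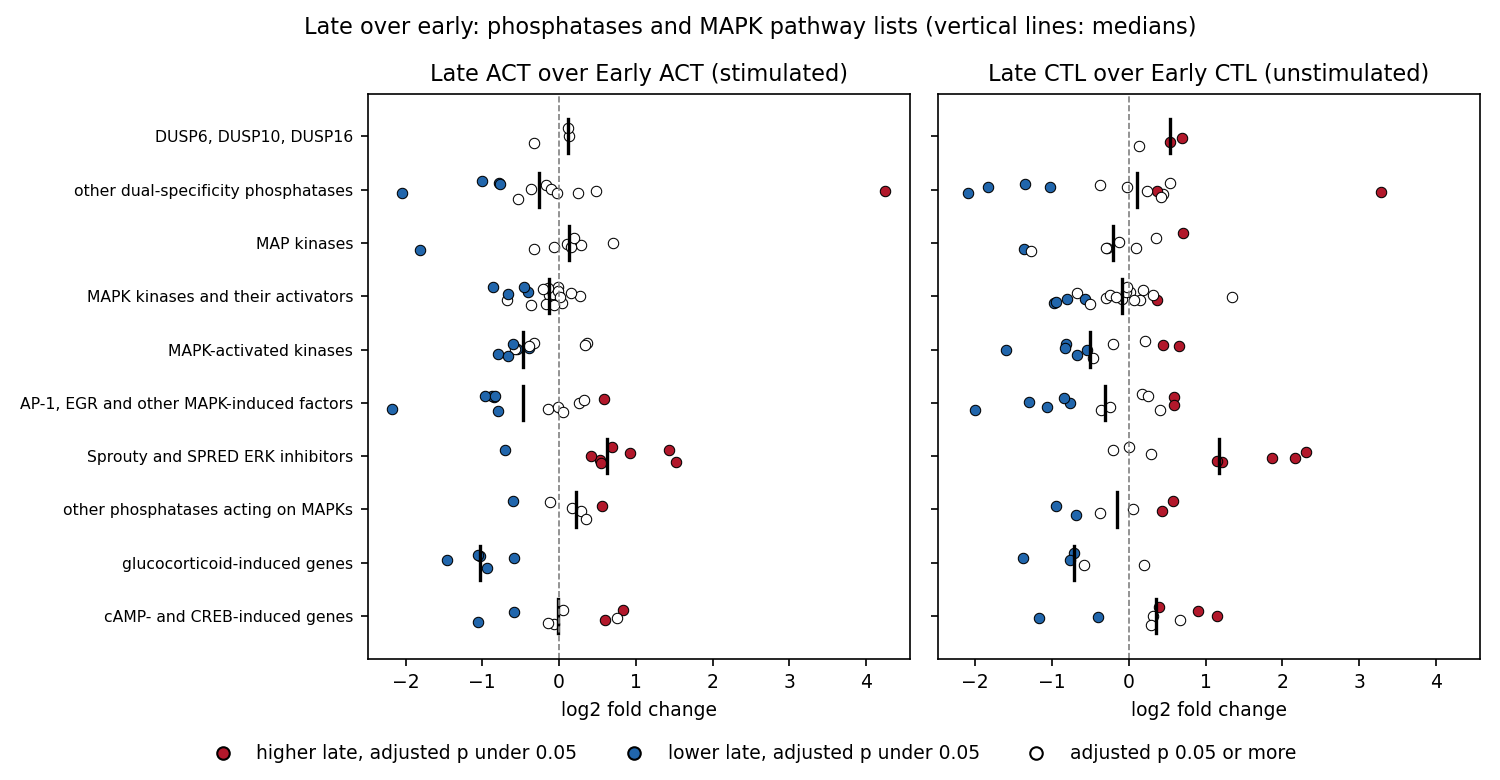
Log2 fold change of late over early in stimulated (left) and unstimulated (right) cells for the 3 phosphatases and each tested gene of the pathway lists, with vertical lines at the medians. The Sprouty and SPRED list has a median of 1.18 in unstimulated cells, and the AP-1 and EGR list of -0.31.

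Expression of some phosphatases is also known to be induced by glucocorticoids and by cAMP. Of 5 tested glucocorticoid-induced genes, 1 rose on early stimulation, NFKBIA, which encodes an inhibitor of NF-kB (0.79 ± 0.11). With time 0 rose and 3 fell in unstimulated cells, among them PER1 (-1.38 ± 0.15) and SGK1 (-0.77 ± 0.11), and all 5 fell in stimulated cells in edgeR, against 4 in DESeq2 and 4 without Early ACT 1. ZBTB16, named after its values were seen, was the least stable of the 5 and passed in 5 of 18 alternatives, with adjusted p up to 0.179. Of 8 cAMP- and CREB-induced genes, 2 rose and 0 fell on early stimulation, CREM by 0.58 ± 0.18 and PDE4B, named after its values were seen, by 0.51 ± 0.11. CREM passed in 7 of 19 alternatives, with adjusted p up to 0.19. In unstimulated cells 3 of the 8 rose and 2 fell with time, among them SIK1 (0.90 ± 0.13), CREM (1.15 ± 0.18) and NR4A1 (-1.17 ± 0.14), and in stimulated cells 2 rose and 2 fell. With time 40.7% of all tested genes passed in unstimulated and 38.8% in stimulated cells. On late stimulation 0 of the 88 tested genes of all these lists passed in edgeR, with 7 at an unadjusted p under 0.05 and 2 called by DESeq2. Of all tested genes 4.46% were under that unadjusted threshold in edgeR. On early stimulation 11 of the 88 passed, 8 higher and 3 lower, and in the late minus early response 3 passed. Of all tested genes 7.23% and 1.41% passed in these 2 tests. Without Early ACT 1, when 91 list genes could be tested, 23 passed on early stimulation, 15 higher and 8 lower, 2 on late stimulation and 10 in the late minus early response. Calls over all genes moved too. With a library left out they were 464 to 1554 on early stimulation, 0 to 29 on late stimulation and 95 to 546 in the late minus early response. The share of all genes called without Early ACT 1 is not given here, so these list counts have no matching background. Without Early ACT 1 the AP-1 and EGR list held 2 that rose and 3 that fell on early stimulation, and the MAPK kinases and their activators 3 that rose and 2 that fell. Of the MAP kinases 1 rose and 0 fell, and of the MAPK-activated kinases 1 rose and 1 fell. DUSP19, the far-right point among the other dual-specificity phosphatases in the plot of late over early changes, was named after its values were seen and had at most 3 counts in any early library and 4 to 21 in late ones.

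**Figure D5:**
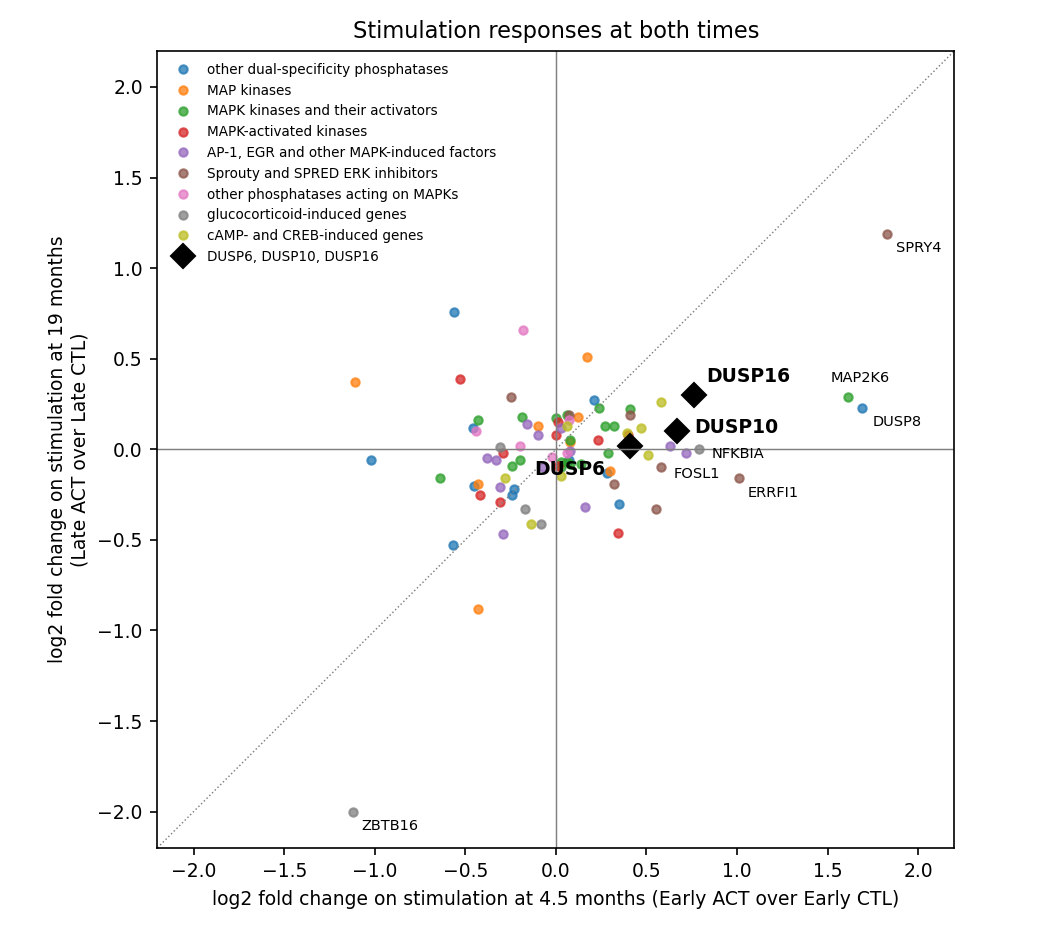
Log2 fold change on stimulation at 19 months (vertical axis) against that at 4.5 months (horizontal axis) for the 3 phosphatases (diamonds) and the tested pathway genes (circles), with the dotted line at equal change. The phosphatases lie at 0.41, 0.67 and 0.76 on the horizontal and at 0.02, 0.10 and 0.30 on the vertical axis.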

How the data were processed

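Per the labels' protocols, cDNA came from the SMART-Seq v4 kit and libraries from Nextera XT, and neither marks the strand. The authors deposited a raw count per gene and library on build Mmul_8.0.1. Per the submitters' processing notes bcl2fastq was used. How reads were aligned and counted is not given in the sources used here. The authors' deposited tables of late over early cells give a log2 fold change with its standard error, a test score, a p-value and a mean normalized signal. All 12 count columns were used. Rows were named by their symbol, else by a macaque name table, else by the authors' deposited tables, and rows with no name held 16.8% of the counts. Pathway lists left out names found only in the authors' deposited tables. Those deposited tables hold only called genes.

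CPM were computed on the library total. Counts were tested with edgeR 4.0.16 in R 4.3.3 (robust quasi-likelihood test, TMM scaling, filterByExpr by group, a coefficient per group over all 12 libraries), with a common biological coefficient of variation of 0.143. The fit was tested on simulated data. DESeq2 1.42.0 was an alternative. Intervals are 95% intervals of the fit. Members and lists were chosen with earlier results of these data known. The text names the members, up to 3 genes of each list with the smallest p in any comparison, the kinases MAPK3, MAPK8 and MAPK14, and the 3 genes most correlated with each member (log2 CPM with a prior count of 2, mean CPM of at least 10). A further gene that this rule names is not reported here.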

Additional observations from a re-analysis of the deposited data

Results flagged for a closer look

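Of the 88 tested pathway genes, 3 differed in the test of the late minus the early stimulation response (edgeR). ERRFI1, an inhibitor of the EGF receptor, differed by -1.17 on the log2 scale (adjusted p = 0.00408), with a response of -0.16 ± 0.15 late and 1.01 ± 0.16 early. FOSL1, an AP-1 subunit, differed by -0.74 (adjusted p = 0.00678), with -0.02 ± 0.11 late and 0.72 ± 0.11 early. NFKBIA, an inhibitor of NF-kB, differed by -0.79 (adjusted p = 0.00571), with 0.00 ± 0.11 late and 0.79 ± 0.11 early. All 3 passed in each of 18 alternatives, with adjusted p of at most 0.0252 for ERRFI1, 0.0376 for FOSL1 and 0.0349 for NFKBIA.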

How the results depend on the processing

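Of the alternatives for single phosphatases, 268 results kept their direction and side of the threshold, 7 lost the threshold, 4 gained it and 3 changed sign. Genes called on late stimulation, 0 as reported, were 2 with upper-quartile factors, 5 with no low-count filter, 15 in DESeq2, 10 with only the compared groups and 0 to 29 with a library left out. Genes called on early stimulation, 855 as reported, were 503 with only the compared groups and 464 to 1554 with a library left out. In the interaction 167 genes were called, 312 in DESeq2 and 95 to 546 with a library left out. With a library left out, 1 to 3 phosphatases passed on early stimulation, 0 to 1 in late against early stimulated cells and 0 to 1 in the interaction. With no low-count filter 1 passed in late against early stimulated cells, and in DESeq2 1 passed in the interaction.

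Sign changes were all in estimates that did not pass. With libraries left out, the late response ranged from -0.02 to 0.20 for DUSP10 and from -0.0042 to 0.02 for DUSP6 (both lowest without Late CTL 3), and late over early unstimulated DUSP16 from -0.18 to 0.31. MAPK14 in late over early stimulated cells was 0.04 with upper-quartile factors and ranged from -0.18 to 0.01 with libraries left out. The cause was not tested. On the TMM-scaled total, DUSP6 averaged 1828.9 CPM in Early CTL, and DUSP10 and DUSP16 36.05 and 198.1 CPM in Early ACT.

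Same-numbered libraries did not deviate together (correlations of -0.0861 to 0.0969), so the numbers were not taken as pairs. With the replicate block 0, 3, 2, 0 and 0 phosphatases passed on late stimulation, early stimulation, with time unstimulated, with time stimulated and in the interaction, and 0, 727, 4596, 4354 and 114 genes. Between times in unstimulated cells, 5 of 6 libraries correlated best with their own number, and in the other comparisons 0 to 2 of 6, a hint from the data and not from the design. Matching members by symbol row names alone found none, so it gave no value. The shallowest library held 3910680 counts, and of the 3 phosphatases DUSP10 had the fewest counts, 141 at its lowest, and DUSP16 the widest intervals. Reads carry no molecular identifiers.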
